A study of Mus musculus with 4 samples.

Results

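Mmp2, Thbs1, Dcn and Islr are 4 genes for proteins that are secreted into, or sit at the cell's edge of, the extracellular matrix, and none of them is a collagen. They were chosen by their symbols among the rows of the authors' deposited table of transcript clusters, where each has 1 cluster. Clusters in that table differed by at least 1.5-fold between treated and untreated cells. It holds 559 clusters, whereas 2292 differed by at least 1.5-fold in the values of single arrays. Absence from the table therefore does not mean a smaller difference. Mmp2, Thbs1, Dcn and Islr are 4 of the 536 genes that could be named from that table and 4 of 35557 transcript clusters on the array. The members were therefore selected on the contrast described here, so their differences are given as a description without a test.

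The cells were C2C12, an established line of mouse myoblasts, the precursors that fuse to form muscle fibres. In the Bex10 group, confluent cells were kept for 48 h in a basal adipogenesis medium that held 10 µM of the compound labelled Bex, and in the Ctrl group for the same 48 h in that medium alone. The labels do not spell out Bex. From what is known of the study it stands for bexarotene, a drug that activates retinoid X receptors (RXRs), nuclear receptors that regulate genes together with a partner receptor. Each group had 2 arrays of 1 cell line, which limits the precision of every value, and the labels mention 2 batches of cells without saying which array came from which, so the spread between arrays may be partly technical.

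The extracellular matrix is the mesh of proteins and sugars that cells lay down around themselves, and it is constantly built, cut and rebuilt. Matrix metalloproteinases cut it, matricellular proteins such as the thrombospondins pass signals between matrix and cells rather than bearing load, and small leucine-rich proteoglycans coat collagen fibrils and hold growth factors. In muscle and fat, much of the matrix is made by fibroblasts and mesenchymal progenitors, while fat cell formation involves a remodelling of the matrix around the progenitor.

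All 4 genes were lower with Bex, 3 of them by a similar amount and Islr by more. Levels on the Bex10 arrays were 55.7% of the Ctrl level for Mmp2, 58.0% for Thbs1, 58.1% for Dcn and 26.0% for Islr. For each of the 4, both Bex10 arrays lay below both Ctrl arrays, which was also the case for 24.2% of all clusters on the array. At least 1.5-fold lower were 2.82% of all clusters. Because the table's cutoffs on the same arrays largely force both properties, these shares are given as background only.

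**Figure D1:**
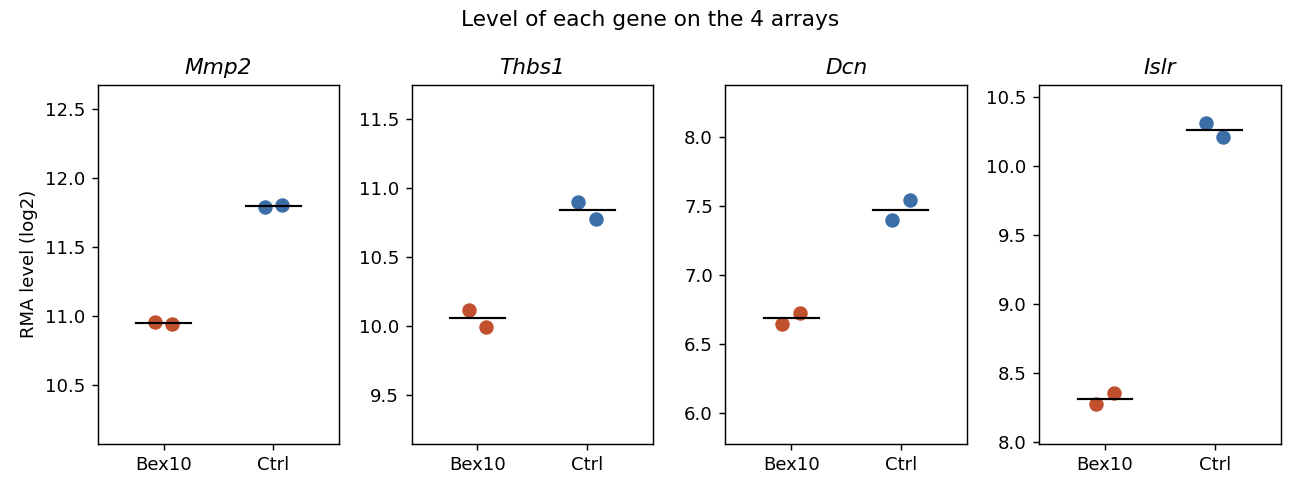
RMA level (log2) of Mmp2, Thbs1, Dcn and Islr on each array, with 1 point per array, the Bex10 group left of the Ctrl group, and a line at each group's mean. Every panel spans the same number of log2 units around its own centre, and in each the 2 Bex10 points lie below the 2 Ctrl points, with the widest gap (1.85) for Islr.

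Mmp2 encodes gelatinase A, a zinc protease that cuts basement membrane collagen and denatured collagen. Its log2 level was 10.96 and 10.94 on the Bex10 arrays, against 11.79 and 11.80 on the Ctrl arrays. Replicates lay very close, 0.0143 apart in the Bex10 group and 0.0122 apart in the Ctrl group, while 0.83 separated the groups at their nearest. Mmp2 was 1.80-fold lower with Bex (log2 difference -0.84 ± 0.08, SE of the limma fit, n = 2 per group), with a 95% interval of -1.06 to -0.63. The standard error borrows the spread of all clusters, and it is therefore wider than the replicate arrays of Mmp2 alone would give.

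Thbs1 encodes thrombospondin-1, a matricellular glycoprotein that inhibits new vessel growth, activates latent TGF-beta and binds the receptors CD36 and CD47. Its log2 level was 10.11 and 9.99 on the Bex10 arrays, against 10.90 and 10.78 on the Ctrl arrays. The 2 arrays of a group differed by 0.120 with Bex and by 0.123 in Ctrl, and the groups stayed 0.66 apart at their nearest. Thbs1 was 1.72-fold lower with Bex (log2 difference -0.78 ± 0.10, 95% interval -1.06 to -0.51). In array pairs that share a number the difference was -0.79 for number 1 and -0.78 for number 2.

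Dcn encodes decorin, a small leucine-rich proteoglycan that binds collagen fibrils and can sequester TGF-beta. Its log2 level was 6.65 and 6.73 on the Bex10 arrays, against 7.40 and 7.54 on the Ctrl arrays. The groups were 0.67 apart at their nearest, against a spread of 0.0766 within Bex10 and 0.144 within Ctrl. Dcn was 1.72-fold lower with Bex (log2 difference -0.78 ± 0.10, 95% interval -1.06 to -0.51). Of the 4 genes it lay nearest to the table's cutoff, with a fold change of -1.69 in the authors' deposited table, whose smallest decrease was -1.51. Genes outside that table have no name here, so none just beyond the cutoff can be given.

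Islr encodes a membrane-linked protein with leucine-rich repeats and an immunoglobulin domain, also called Meflin, which marks mesenchymal stromal cells and fibroblasts. Its log2 level was 8.27 and 8.36 on the Bex10 arrays, against 10.31 and 10.21 on the Ctrl arrays. The groups lay 1.85 apart at their nearest, far beyond the 0.0823 between the Bex10 arrays and the 0.102 between the Ctrl arrays. Islr was 3.85-fold lower with Bex (log2 difference -1.95 ± 0.09, 95% interval -2.20 to -1.69). Only 18 of the 35557 clusters, Islr included, were as low or lower, and among the lower clusters of the deposited table it ranked 6 of 212. Mmp2 ranked 76, Thbs1 91 and Dcn 92 in the same order.

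**Figure D2:**
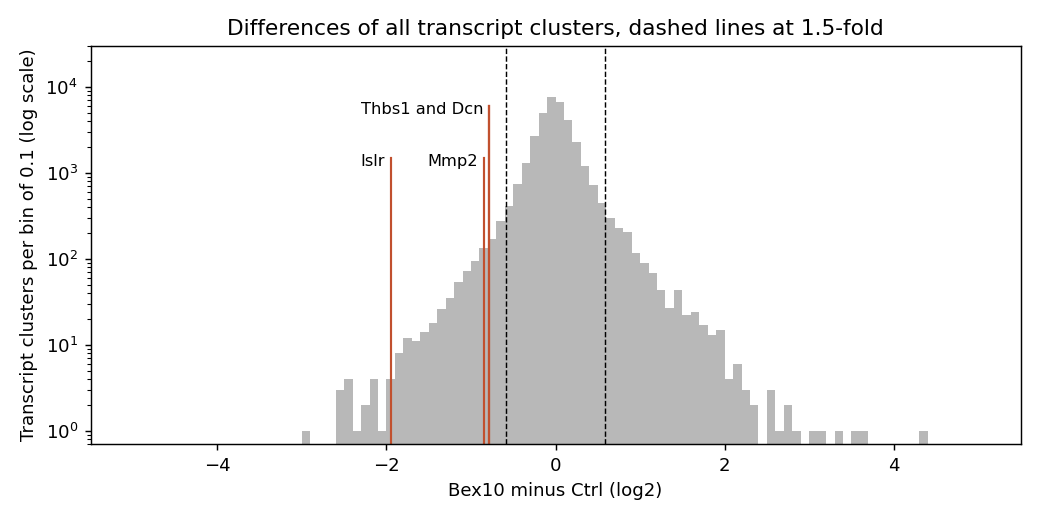
Number of transcript clusters (log scale) by their difference, Bex10 minus Ctrl (log2), in bins of 0.1, with dashed lines at 1.5-fold and red lines at the 4 genes. Mmp2, Thbs1 and Dcn lie between -0.84 and -0.78, just past the dashed line, and Islr lies in the sparse tail at -1.95.

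Set against one another, Mmp2, Thbs1 and Dcn differed in their log2 differences by 0.06 at most, less than the standard error of any of them. The log2 difference of Islr minus that of Dcn was -1.16, with -1.29 and -1.04 in the same-numbered pairs of arrays. Against Mmp2 it was -1.10, with -1.21 and -0.996 in the pairs. These gaps are a description, since the genes were picked with their values known. The level of a cluster depends on its probes, so the levels of the 4 genes were not ranked against one another.

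The authors' deposited table gives its own log2 averages for the same arrays. For Islr it lists 8.0 for Bex and 9.97 for Ctrl, both lower than the group means of 8.32 and 10.26 on the single arrays. Its fold change for Islr, -3.91, is close to the one above. For Dcn it lists 6.9 for Bex and 7.65 for Ctrl, both higher than the group means of 6.69 and 7.47. These averages lie outside the levels on the single arrays, so they are not averages of those levels. The authors' deposited table gives Mmp2 a fold change of -1.79 and Thbs1 one of -1.75. All 4 genes have the same direction in both sources, which come from the same arrays.

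The sequence around the start of Islr is shown because Islr differed most of the 4. It covers 250 bases before to 50 bases after an annotated start of Islr in RefSeq (GRCm38.p6, chr9:58158505-58158804, minus strand), and capitals mark the matches to the motifs searched.
Islr: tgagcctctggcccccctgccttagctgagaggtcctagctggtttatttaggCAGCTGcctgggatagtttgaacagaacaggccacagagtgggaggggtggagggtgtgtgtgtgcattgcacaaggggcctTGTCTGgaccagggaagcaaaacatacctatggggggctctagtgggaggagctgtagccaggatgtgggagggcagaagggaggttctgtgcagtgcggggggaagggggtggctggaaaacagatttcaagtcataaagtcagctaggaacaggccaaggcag

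The window was searched on both strands for 5 short motifs. It holds 1 E-box (CANNTG, the site of basic helix-loop-helix factors such as MyoD), which begins 197 bases before the start, and 1 CAGACA, a Smad-type element, on the opposite strand, which begins 115 bases before the start. An E-box was present in 72.3% and CAGACA in 21.0% of 32851 windows of the same length in that table. AGGTCA, the core site recognised by RXR and its partners, was not among these letters and was found in 16.3% of windows. TGANTCA, the AP-1 site, and TATAAA were not there either and were found in 7.81% and 13.6% of windows. The window holds 1 CpG, against a median of 7, and its GC content is 57.0%, against a median of 52.7%. A match or its absence in this window says nothing about binding. The same table of windows held none for Mmp2, Thbs1 or Dcn.

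In the genome, none of the 16 protein-coding genes that flank the 4 members, counting 2 on each side, is in the deposited table. Among them are Lum and Kera, small leucine-rich proteoglycan genes next to Dcn, Stra6, a cell surface receptor for retinol uptake next to Islr, and Islr2, a relative of Islr, on its other side. Neighbours came from the RefSeq gene table of assembly GRCm38.p6. Absence from the deposited table does not show that a neighbour differed by less than 1.5-fold.

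For other matrix genes, 4 lists of non-collagen matrix genes held 118 genes, of which 114 were not among the 4. Of these 114, 19 could be named, 14 lower and 5 higher, with a median log2 difference of -0.66. Over all 536 named genes 200 were lower and 336 higher, with a median of 0.67, and over all clusters the median was -0.01. In the limma fit none of the 35557 clusters (0%) had an adjusted p below 0.05, although 4189 had an unadjusted p below 0.05, so no matrix gene passed either. When the prior variance was allowed to follow the level (the variance-trend fit), 7 of the 19 passed as lower and 4 as higher, against 0.439% of all clusters as lower and 0.762% as higher. The table holds only clusters picked on these arrays, so neither the split nor the calls are independent evidence. The 11 calls of the variance-trend fit became 1 without Bex10 array 1, 2 without Bex10 array 2 and 0 without either Ctrl array, with a single array then assumed to vary like the group that kept 2. In all 19 the groups did not overlap, which the table's cutoffs on the same arrays largely force. Of all clusters, 24.2% lay lower on both Bex10 arrays than on both Ctrl arrays, and 20.6% lay higher on both.

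Among genes akin to Dcn and Islr, Prelp, a proteoglycan that anchors basement membranes to connective tissue, was 2.78-fold lower (log2 difference -1.47 ± 0.12) and passed the variance-trend fit. Omd, the bone and connective tissue proteoglycan osteomodulin, was 3.67-fold lower (-1.87 ± 0.28) without passing. Its Bex10 levels, 4.41 and 3.65, lay under the limit of 4.57 below which 30% of clusters fall, so its fold is uncertain. With Dcn and Islr, all 4 named genes of the 15 on that list were lower. Islr carries leucine-rich repeats but is no small leucine-rich proteoglycan.

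Among the relatives and partners of Thbs1, Thbs2, thrombospondin-2, was 1.52-fold lower (-0.60 ± 0.09) and did not pass. Ptn, the heparin-binding growth factor pleiotrophin, was 5.46-fold lower (-2.45 ± 0.14) and passed. Spp1, the integrin-binding phosphoprotein osteopontin, went the other way at 1.98-fold higher (0.99 ± 0.08) and passed. Of 22 listed receptors of the 4 proteins, Cd36 was the only one named. It codes for a receptor of thrombospondin-1 that also takes up fatty acids, and its log2 level was 7.90 and 7.80 on the Bex10 arrays, against 5.01 and 4.59 on the Ctrl arrays.

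The named protease and inhibitor genes besides Mmp2 were 4 lower and 2 higher. Timp1 and Timp3, inhibitors of metalloproteinases, were 1.72-fold (-0.78 ± 0.11) and 1.66-fold (-0.73 ± 0.13) lower, as Mmp2 was, and Timp1 passed the variance-trend fit while Timp3 did not. Plau and Plat, the plasminogen activators, were 1.93-fold (-0.95 ± 0.14) and 1.86-fold (-0.89 ± 0.17) lower without passing. Serpine2, a serine protease inhibitor, was 1.75-fold higher (0.81 ± 0.12) and did not pass, and Adamts1, a protease of large proteoglycans, was 1.59-fold higher (0.67 ± 0.08) and passed. Mmp14 and Timp2, which activate the Mmp2 protein at the cell surface, were on the list but not among the named genes.

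The glycoprotein and elastic fibre list had 6 lower and 2 higher named genes, and members of 2 families lay on opposite sides. The basement membrane linker Nid2 was 2.74-fold lower (-1.45 ± 0.10), whereas its relative Nid1 was 1.61-fold higher (0.68 ± 0.08). Ltbp1 (-0.64 ± 0.09) and Ltbp2 (-0.76 ± 0.09), of the latent TGF-beta binding protein family, were lower, whereas Ltbp3 was higher (0.67 ± 0.09). These 5 and Matn2, an adaptor of matrix filaments (-0.61 ± 0.09), passed the variance-trend fit, and the elastic fibre protein Fbln1 and the mineralised tissue protein Dmp1, both lower, did not.

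**Figure D3:**
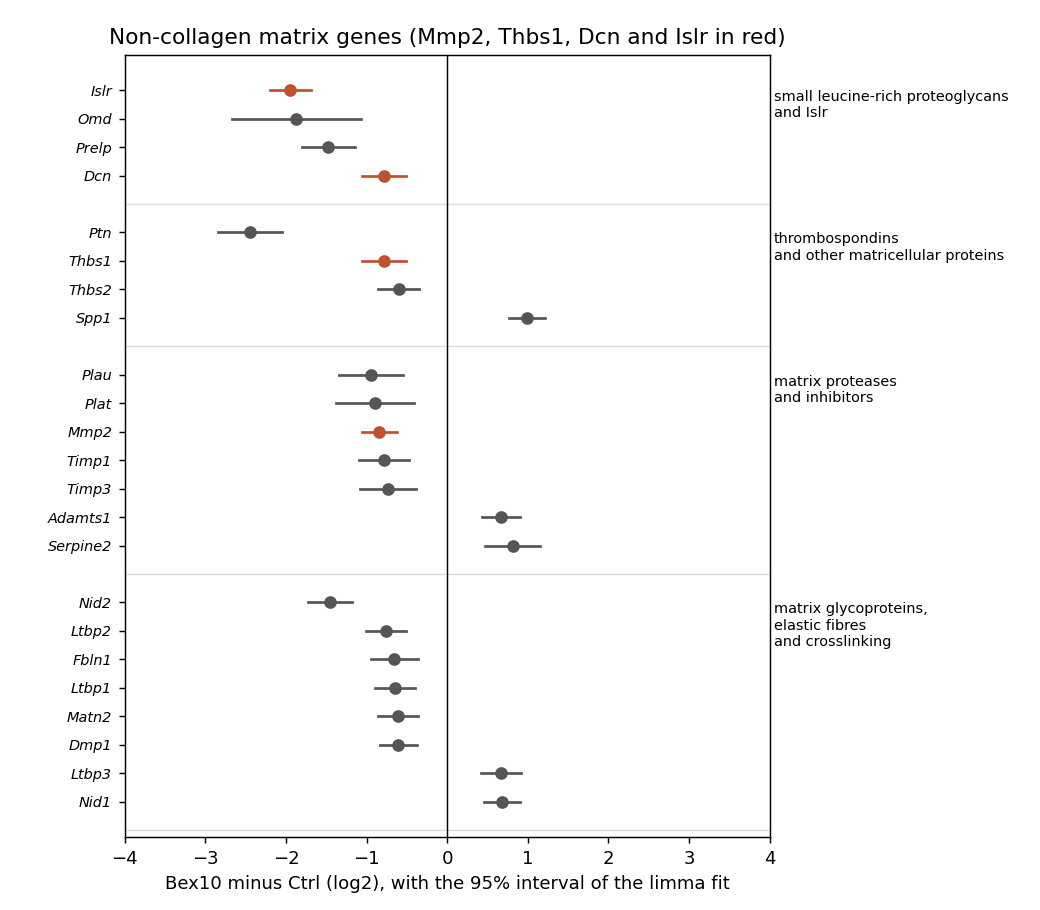
Differences, Bex10 minus Ctrl (log2), of the 23 named non-collagen matrix genes by list, with points for the difference, bars for the 95% interval of the limma fit and red for Mmp2, Thbs1, Dcn and Islr. Of the 23, 18 lie left of 0 and 5 right of it, and Spp1 is the furthest to the right at 0.99.

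Collagen genes and their processing factors gave 5 lower and 1 higher of 6 named. Col12a1 (-0.91 ± 0.08), Pcolce, and Col4a1 and Col4a2 of the basement membrane were lower and passed the variance-trend fit, Col6a2 (1.05 ± 0.12) was higher and passed, and Col18a1 (-0.72 ± 0.09) did not pass. In the list of TGF-beta and BMP signalling 2 of 6 named genes were lower and 4 higher. Bmp4 was lower (-1.39 ± 0.09) and passed, the stress-induced cytokine gene Gdf15 (0.78 ± 0.11) was higher and passed, and Inhba, a subunit of activins (1.12 ± 0.22), was higher without passing. Grem1, a BMP antagonist (-0.59 ± 0.09), Id2 (0.95 ± 0.14) and Mstn, the growth inhibitor myostatin (1.07 ± 0.19), did not pass.

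Likeness between genes was measured as the Euclidean distance between levels over the 4 arrays, each gene centred on its own mean, among the 536 named genes. Nearest to Mmp2 were Cd93, a surface glycoprotein (distance 0.0643), Nhsl1 (0.0712) and F3, tissue factor (0.0733). Nearest to Thbs1 were Pcolce, an enhancer of procollagen processing (0.0315), Tns1, a focal adhesion protein (0.0414), and Ltbp2 (0.0435). Nearest to Dcn were Tmem119 (0.0284), Igsf3 (0.0621) and the interleukin-1 receptor gene Il1r1 (0.0629). For Islr the nearest were Orm3, an acute-phase protein (0.143), Cav1, the main protein of caveolae (0.167), and Gas6, a ligand of receptor tyrosine kinases (0.191).

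None of the 4 genes was among the 3 nearest of another. Mmp2 came 21st among the genes nearest to Dcn (distance 0.129) and 23rd among those nearest to Thbs1 (0.135), and Dcn and Thbs1 lay 0.234 apart. The order of the Bex10 arrays and of the Ctrl arrays was opposite for Thbs1 and Dcn, since Thbs1 was lower on both arrays numbered 2 and Dcn was higher on both. Islr was at least 1.11 from the other 3. With 4 arrays this measure reflects mainly the size of the difference and the order of replicates, and it is a description only.

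**Figure D4:**
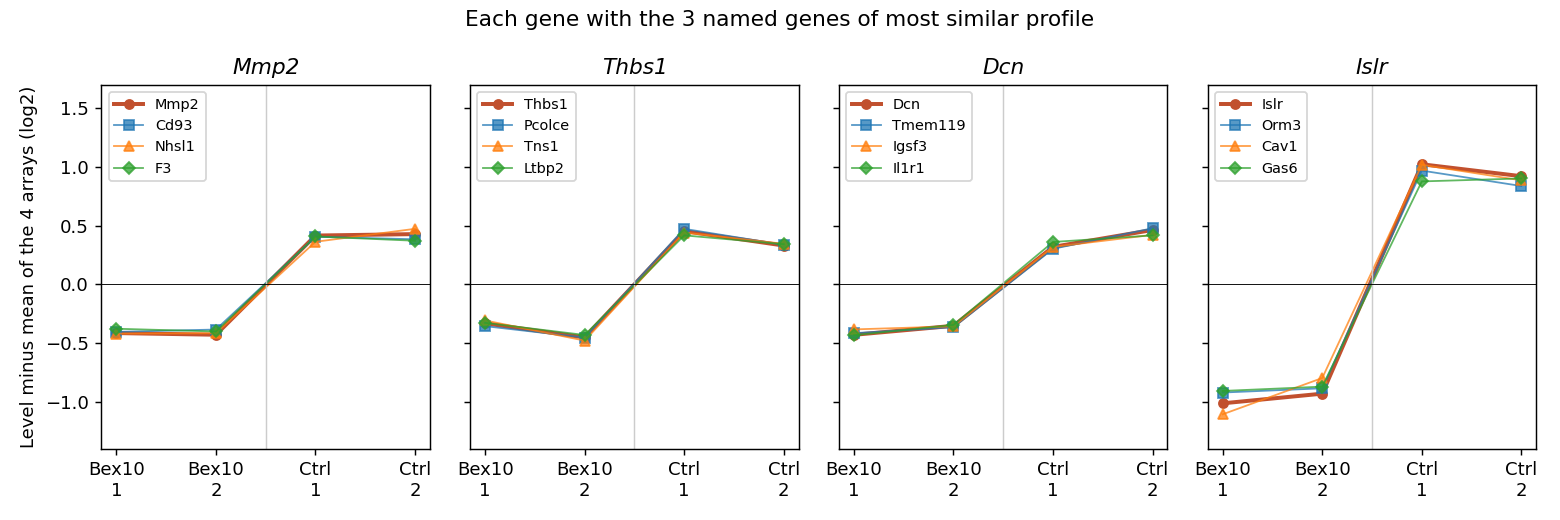
Level minus the mean of the 4 arrays (log2) for each of the 4 genes (thick red line) and for the 3 named genes of the smallest distance to it, on the Bex10 arrays and then the Ctrl arrays. The neighbours of Mmp2, Thbs1 and Dcn follow them closely, within a distance of 0.0733, and those of Islr less closely, at 0.143 to 0.191.

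Markers of other cell states were named only where the deposited table, picked on these same arrays, held them, so that a difference in each was fixed by its cutoffs. No marker passed the main limma fit, and calls below are those of the variance-trend fit, against the same 0.439% of all clusters called lower and 0.762% called higher. Sums of linear levels follow the brightest probes, so the gene that leads each sum is given.

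Of 30 myoblast and myotube markers 12 were named, 11 higher (8 passed) and 1, the satellite cell factor Pax7, lower (passed). Their sum was 14428 to 16197 on the Bex10 arrays, against 7815 to 8616 on the Ctrl arrays, with the myosin light chain gene Myl1 at 24.4% to 30.1% of it. Of 16 fat cell markers 6 were named, all higher and all passing, with sums of 5200 to 5397 with Bex and 1543 to 1581 in Ctrl, of which Lpl, the lipoprotein lipase gene, made up 47.3% to 61.1%.

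Of 14 fibroblast and progenitor markers 3 were named. Cd34 (-1.21 ± 0.08) and Ly6a (-0.57 ± 0.08) were lower and passed, while Fap went the other way (0.96 ± 0.22) without passing. Its log2 level was 4.00 and 4.58 on the Bex10 arrays, against 3.31 and 3.35 on the Ctrl arrays. Fap lay under the limit of 4.57 on 3 of 4 arrays, so its fold is uncertain, as for Omd. The sum, 3300 to 3442 with Bex and 5022 to 5055 in Ctrl, was 97.4% to 97.9% Ly6a and so shows almost only that gene. Of 7 smooth muscle markers 2 were named, Actg2 (-0.87 ± 0.09), which was lower and passed, and Tagln (-1.04 ± 0.12), which did not pass, with sums of 426 to 431 with Bex and 760 to 832 in Ctrl, at least 86.0% of it Actg2. Of 8 macrophage markers only Cd14 was named, at linear levels of 173 to 176 with Bex and 81.8 to 107 in Ctrl, and it did not pass.

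The part of these states in the lower levels of Mmp2, Thbs1, Dcn and Islr was not tested. In RNA of whole dishes, fewer cells of a type and less RNA per cell cannot be told apart. Myod1, Myog and Des, defining genes of the myoblast line, were on the marker list but not among the named genes, so their levels cannot be given.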

How the data were processed

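The authors deposited log2 values of single arrays, made by RMA from core exons, per the labels, with Affymetrix Expression Console. RMA brings all arrays to a similar overall distribution and could hide a change shared by most transcripts. The authors' deposited table of 559 clusters, linked to Transcriptome Analysis Console in the submitters' processing notes, lists for each group a log2 average and for the contrast a fold change score (minus Ctrl over Bex where lower). Per the file headers it also holds p-values of an ANOVA, raw and as FDR. The sources used here name no version, build or annotation.

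Groups and replicate numbers came from the titles. No duplicate arrays were found (30 to 58 identical values per pair), array medians were 5.76 to 5.80, and Pearson's r across clusters, which are not independent, was 0.986 to 0.991. All 35557 clusters entered limma 3.58.1 (lmFit, eBayes) in R 4.3.3, Bex10 minus Ctrl, without filter or covariates, with Benjamini-Hochberg adjustment at 0.05. The fit was tested on simulated data. Names came from the 545 clusters of the authors' table with 1 symbol (536 genes), and where a gene had several (9 genes) the cluster of highest mean stood for it. The members and the gene lists were chosen with earlier results of these data known. The naming rule took the 4 members, the genes of the matrix, receptor and signalling lists found in that table, of which 1 is not reported here, and the 3 nearest genes per member. Marker lists are given by counts, sums and examples chosen after their values were seen. Protein motifs, planned for the members, were not used here. Promoter windows came from RefSeq, and 1 of the 4 members matched. Python 3.11.15 with pandas 2.3.3, numpy 2.4.6 and matplotlib 3.10.9 made lists and plots.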

Additional observations from a re-analysis of the deposited data

How the results depend on the processing

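The differences of Mmp2, Thbs1, Dcn and Islr kept their direction under every alternative run. For leaving out an array this was certain, because both Bex10 arrays lay below both Ctrl arrays. The replicate block cannot change a difference in this design. Subtracting each array's median moved Mmp2 to -0.82 and quantile normalization to -0.83, more than its very small replicate spread. Thbs1, Dcn and Islr moved by less than theirs under both settings and with the authors' averages. Without each array in turn, Mmp2 lay between -0.85 and -0.84, Thbs1 between -0.85 and -0.72, Dcn between -0.86 and -0.71 and Islr between -1.997 and -1.895.

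Deviations of same-numbered arrays correlated at 0.00786 over all clusters. This cannot decide whether arrays that share a number came from the same batch of cells. With the replicate block the differences were unchanged by construction (Islr -1.95), and 0 clusters passed. The count of 0 clusters became 427 with the variance trend, 105 without the 30% of dimmest clusters, and 2292 at 1.5-fold alone with no test. It became 297 when 6669 clusters with IDs lower than any named one were left out, a setting chosen after seeing the data. Of the 19 other non-collagen matrix genes, the count of 0 became 11, 4, 19 and 6 in the same order. The 4 were Nid2, Prelp, Ptn and Spp1, and both smaller sets lay within the 11. Also chosen after seeing the data, the variance trend with an array left out called 23 clusters without Bex10 1, 32 without Bex10 2 and 0 without either Ctrl array, and 1, 2 and 0 of the 19 genes. Median shift and quantile normalization left both counts at 0, as did leaving out each array, where the spread came from 1 group alone. Of 448 further values, for 56 listed genes, 435 moved by less than the replicate spread, 13 by more, and none changed direction. Leaving out an array or adding the replicate block could not move a value by more than this spread or reverse its direction. Those settings are therefore no check of stability.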
